A study of Rattus norvegicus with 18 samples.

Results

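The enzymes that turn arachidonic acid into prostaglandins and leukotrienes were followed through lungs exposed to a multi-walled carbon nanotube (MWCNT) for up to 2 years. The members were 10 genes chosen by name, and 9 of them were found among the 22081 genes listed. The 9 were *Alox5*, *Alox5ap*, *Lta4h*, *Ltc4s*, *Alox15*, *Ptgs1*, *Ptgs2*, *Ptges*, and *Hpgds*. The prostacyclin synthase gene *Ptgis* was not analysed here. All 9 passed the filter on low counts at each time point, so that no found member was left untested.

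The 6 groups compared were control and MWCNT-treated male F344 rats at Years 0.5, 1, and 2 of the experiment, with 3 rats per group and 18 rats in all. The MWCNT was MWNT-7, instilled into the trachea at 0.5 mg/kg every 4 weeks from an age of 9 weeks, and the control rats received the vehicle by the same route. The study's methods describe the RNA as coming from small pieces of the accessory lobe, with tumors seen at necropsy left out. The rest of the lobe was also checked under the microscope for tumors. The authors warn that the pieces could still have held hyperplasias and early adenomatous lesions. RNA of such pieces holds epithelium, vessel, connective tissue, and leukocytes together. In this bulk RNA fewer cells of a type and less RNA per cell cannot be told apart.

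Arachidonic acid is cut from membrane phospholipid by phospholipase A2 and is then taken by cyclooxygenases or by lipoxygenases. The cyclooxygenases *Ptgs1* and *Ptgs2* make prostaglandin H2, which terminal synthases turn into separate prostanoids. Microsomal prostaglandin E synthase, encoded by *Ptges*, makes prostaglandin E2, and the hematopoietic prostaglandin D synthase *Hpgds*, known from mast cells and other leukocytes, makes prostaglandin D2. On the other branch, 5-lipoxygenase (*Alox5*) works with its activating protein (*Alox5ap*) to make leukotriene A4, which *Lta4h* hydrolyses to the neutrophil attractant leukotriene B4 and *Ltc4s* joins to glutathione to start the cysteinyl leukotrienes. *Alox15* inserts oxygen at another position of the same fatty acid and is known for hydroxy acids and precursors of lipoxins.

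To show the regulatory sequence of the prostaglandin E branch, the 250 bases before the annotated start of 3 genes are given 5′ to 3′ on the strand of the gene. *Ptges*, the member with the largest rise, stands beside the cyclooxygenases that supply its substrate. The sequences are from RefSeq on the GRCr8 assembly, which held an entry for 6 of the 10 members, and capitals mark matches on either strand to GGGCGG (the GC box), GCGGGGGCG (a site of the Egr family), CACGTG (an E-box), or TATAAA (the TATA box).
*Ptges*, chr3:34586988-34587237, minus strand: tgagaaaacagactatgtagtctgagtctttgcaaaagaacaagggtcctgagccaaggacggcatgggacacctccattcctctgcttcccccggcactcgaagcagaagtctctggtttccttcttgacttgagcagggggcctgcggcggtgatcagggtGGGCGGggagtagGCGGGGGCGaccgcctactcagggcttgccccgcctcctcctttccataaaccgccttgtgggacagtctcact
*Ptgs2*, chr13:64713813-64714062, plus strand: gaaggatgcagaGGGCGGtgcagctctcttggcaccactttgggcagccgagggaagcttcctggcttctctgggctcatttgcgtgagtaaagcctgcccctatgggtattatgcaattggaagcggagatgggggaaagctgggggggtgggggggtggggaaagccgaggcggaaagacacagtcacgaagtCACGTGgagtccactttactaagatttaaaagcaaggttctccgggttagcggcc
*Ptgs1*, chr3:39981169-39981418, plus strand: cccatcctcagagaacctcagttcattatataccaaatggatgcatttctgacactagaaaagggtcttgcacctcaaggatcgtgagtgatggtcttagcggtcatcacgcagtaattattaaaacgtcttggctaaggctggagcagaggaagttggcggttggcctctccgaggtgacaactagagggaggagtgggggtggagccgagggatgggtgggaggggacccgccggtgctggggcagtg
In the *Ptges* window the GC box began 87 bases and the Egr site 74 bases before the start, and the matches did not overlap. The GC box was present in 30.5% and the Egr site in 2.45% of the 33469 rat promoter windows of the same length. The *Ptgs2* window held a GC box at 238 bases and an E-box at 55 bases before the start, the latter found in 5.59% of all windows. None of the 4 motifs was found in the *Ptgs1* window, and the TATA box, present in 12.9% of all windows, was in none of the 3. These matches describe letters in the sequence and were not tested for binding.

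Total counts per rat lay between 13297643 and 17868851 for the control rats and between 14661589 and 21130757 for the MWCNT-treated rats. Levels are given as TPM, a unit that corrects for gene length and for the library total, so that genes can be set beside each other. Changes are given as the log2 fold change of MWCNT-treated over control rats from the counts, scaled by TMM. A gene was called a DEG at a false discovery rate (FDR) below 0.05 with an absolute log2 fold change above 1. Of all genes tested, 9.1% were DEGs at Year 0.5, 10.2% at Year 1, and 16.4% at Year 2, and 38.8%, 41.2%, and 49.2% passed the FDR alone. The share of DEGs that were upregulated was 66.7%, 60%, and 49.9% with TMM, and 54.2%, 45.2%, and 37.5% when counts were scaled by library size only, under which the median log2 fold change of all genes moved to -0.13, -0.13, and -0.18. Markers of alveolar type 2 cells, which define lung, summed to between 26937 and 35483 TPM in the control rats and between 50036 and 59464 TPM in the MWCNT-treated rats, with all 5 of its genes passing the FDR upward at each time point, and its part in the changes of the members was not tested. A list of 5 heart muscle genes was at 67.8 to 453 TPM in the control rats and at 14.1 to 138 TPM in the MWCNT-treated rats.

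*Ptges* was upregulated and *Alox15* downregulated at all 3 time points, and *Hpgds* was downregulated at Year 0.5. Thus, 3 members were DEGs at Year 0.5, 2 at Year 1, and 2 at Year 2. Upregulated DEGs, as *Ptges* was, made up 6.07%, 6.13%, and 8.17% of all genes tested, and downregulated DEGs, as *Alox15* was, made up 3.03%, 4.09%, and 8.22%. By the FDR alone, 4 members rose and 2 fell at Year 0.5, 4 rose and 1 fell at Year 1, and 5 rose and 1 fell at Year 2, beside 20.2%, 21.6%, and 25.2% of all genes that rose and 18.6%, 19.6%, and 24% that fell. *Alox5ap*, *Lta4h*, *Ptgs1*, and *Ptges* rose at all 3 time points by the FDR, which 14.8% of the 14108 genes tested at every time point did. The median log2 fold change of the 9 members was 0.16 at Year 0.5, 0.18 at Year 1, and 0.55 at Year 2, and that of all genes tested was -0.02, 0.00, and -0.01. The median absolute log2 fold change was 0.45, 0.47, and 0.55 for the members and 0.26, 0.30, and 0.35 for all genes.

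**Figure D1:**
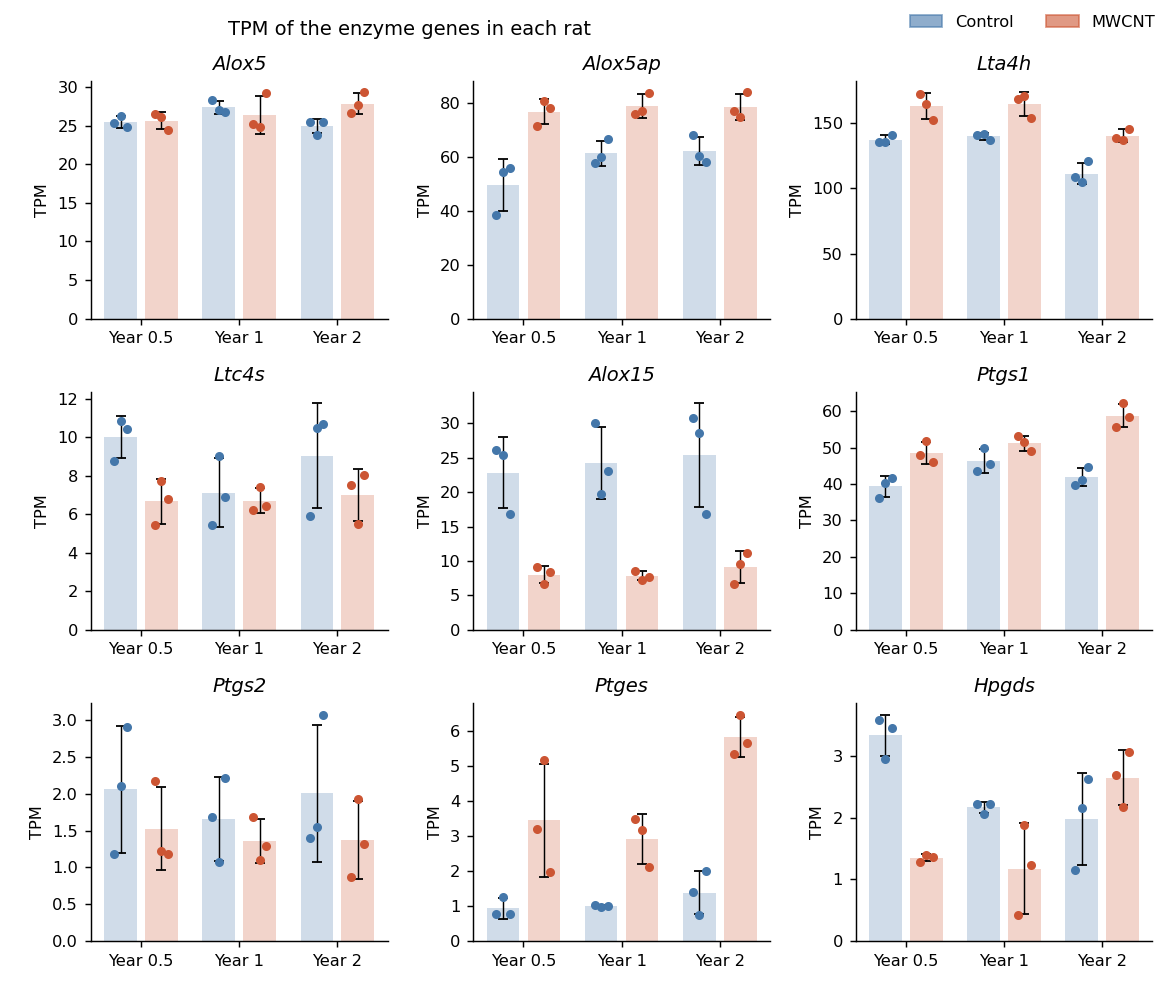
TPM (vertical axis, from 0) of each of the 9 members in every rat at Years 0.5, 1, and 2. Points are rats, bars are group means, and error bars are SD (n = 3). MWCNT-treated rats lie above all control rats for *Ptges* and below them for *Alox15* at each time point, and for *Hpgds* they lie below the control rats at Year 0.5 and overlap with them at Year 2.

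The order of the members by TPM was led by the leukotriene enzymes. In the control rats *Lta4h* stood first with group means of 111 to 140 TPM, followed by *Alox5ap* with 49.6 to 62.1, *Ptgs1* with 39.4 to 46.3, and *Alox5* with 24.9 to 27.4. *Alox5* and *Alox15* overlapped in every control group, and *Alox5ap* and *Ptgs1* overlapped in the control rats of Year 0.5. *Ltc4s* came next with 7.12 to 10.01 TPM. *Hpgds*, *Ptgs2*, and *Ptges* were the lowest, with means of at most 3.33 TPM, and *Ptges* was last in each control group. In the MWCNT-treated rats *Lta4h*, *Alox5ap*, *Ptgs1*, and *Alox5* kept the first 4 places with no overlap between neighbours, *Alox15* overlapped with *Ltc4s* at each time point, and *Ptges* stood above *Ptgs2*, with overlap at Year 0.5.

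*Alox5* passed the test at Year 2 alone, whereas its partner *Alox5ap* rose at each time point. *Alox5* lay between 23.8 and 28.3 TPM in the 9 control rats and between 24.4 and 29.3 TPM in the 9 MWCNT-treated rats. At Year 2 it was 25.4, 23.8, and 25.4 TPM in the control rats and 26.6, 27.6, and 29.3 TPM in the MWCNT-treated rats, and these did not overlap. In log2 fold change, *Alox5* was at 0.16 (SE 0.08, FDR 0.134) at Year 0.5, 0.18 (SE 0.09, FDR 0.128) at Year 1, and 0.38 (SE 0.08, FDR 0.00391) at Year 2. The Year 2 call was lost when counts were scaled by library size only (log2 fold change 0.21, FDR 0.058). It was also lost with limma on log2(TPM + 1) (0.16, FDR 0.133) and on log2(TPM + 0.1) (0.16, FDR 0.129), where the median of all genes was -0.20 and -0.22.

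*Alox5ap*, the membrane protein that presents arachidonic acid to 5-lipoxygenase, was higher in every MWCNT-treated rat than in any control rat of its time point. At Year 0.5 it was 38.4, 54.3, and 55.9 TPM in the control rats and 71.5, 80.6, and 78.1 TPM in the MWCNT-treated rats. At Year 1 the control rats had 57.7, 59.8, and 66.6 TPM and the MWCNT-treated rats 75.8, 77.0, and 83.8 TPM. At Year 2 the values were 68.0, 60.3, and 58.0 TPM in the control rats and 76.9, 74.8, and 83.9 TPM in the MWCNT-treated rats. The MWCNT-treated groups thus stayed at means of 76.7 to 78.8 TPM. The log2 fold change of *Alox5ap* was 0.78 (SE 0.14, FDR 0.00217), 0.60 (SE 0.09, FDR 0.000868), and 0.55 (SE 0.10, FDR 0.00167) at Years 0.5, 1, and 2, which is 1.72-, 1.51-, and 1.46-fold.

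Of the members that use leukotriene A4, *Lta4h* rose at each time point and *Ltc4s* passed the test at none. At Year 0.5 *Lta4h* was 136, 135, and 141 TPM in the control rats and 173, 165, and 152 TPM in the MWCNT-treated rats. At Year 1 it was 141, 142, and 137 TPM against 169, 171, and 154 TPM, and at Year 2 it was 109, 105, and 121 TPM against 139, 137, and 146 TPM. The groups were apart at every time point, although the MWCNT-treated rats of Year 2 overlapped with the control rats of Year 1. Its log2 fold change was 0.39 (SE 0.07, FDR 0.00185), 0.47 (SE 0.08, FDR 0.00217), and 0.55 (SE 0.07, FDR 0.000262).

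*Ltc4s*, the leukotriene C4 synthase, rested on 19 to 43 counts per rat. At Year 0.5 it was 8.79, 10.8, and 10.4 TPM in the control rats and 5.44, 7.73, and 6.81 TPM in the MWCNT-treated rats. These groups were apart, but the log2 fold change of -0.43 (SE 0.26, 95% interval -1.01 to 0.15) had an FDR of 0.221. With limma on log2(TPM + 1) it was -0.53 with an FDR of 0.0202, on a scale where the median of all genes was -0.15. At Year 1 and Year 2 the groups overlapped, with log2 fold changes of *Ltc4s* of 0.16 (95% interval -0.49 to 0.80, FDR 0.683) and -0.14 (95% interval -0.87 to 0.59, FDR 0.738). The ratio of *Lta4h* to *Ltc4s* in TPM was 9.96 to 26.1 in the control rats and 18.1 to 31.7 in the MWCNT-treated rats. *Ltc4s* does not stand for all genes of cysteinyl leukotriene synthesis and conversion. Of 5 others, 1, 2, and 2 rose and 1 fell by the FDR at the successive time points. *Mgst2* had group means of 93.5 to 107 TPM in the control rats and 124 to 142 TPM in the MWCNT-treated rats. It rose, with log2 fold changes of 0.55, 0.65, and 0.66, and *Mgst3* fell, with -0.49, -0.27, and -0.49.

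*Alox15*, at chr10:56953691-56962161 of Rnor_6.0 on the minus strand, was the member that fell at every time point. At Year 0.5 it was 26.1, 25.4, and 16.9 TPM in the control rats and 9.06, 6.59, and 8.35 TPM in the MWCNT-treated rats. At Year 1 the control rats had 30.0, 19.7, and 23.0 TPM and the MWCNT-treated rats 8.55, 7.24, and 7.70 TPM. At Year 2 the control rats had 30.8, 28.6, and 16.8 TPM and the MWCNT-treated rats 6.69, 9.54, and 11.2 TPM. The highest MWCNT-treated rat, at 11.2 TPM, lay below the lowest control rat of any time point, at 16.8 TPM, and the spread among the control rats was the wider. The log2 fold change of *Alox15* was -1.38 (SE 0.19, FDR 0.000593), -1.40 (SE 0.17, FDR 0.000293), and -1.27 (SE 0.25, FDR 0.0026), or 2.60-, 2.63-, and 2.41-fold lower. Among the 14108 genes tested at every time point, 1.18% were downregulated DEGs at all 3. Within each rat the ratio of *Alox15* to *Alox5* in TPM was 0.662 to 1.21 in the control rats and 0.251 to 0.381 in the MWCNT-treated rats. *Alox15* was thus close to *Alox5* in the control rats and far below it in the MWCNT-treated rats.

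Cell markers moved beside these lipoxygenase genes. The summed level of 8 macrophage genes was 338 to 444 TPM in the control rats and 928 to 1584 TPM in the MWCNT-treated rats, with 5, 4, and 6 of the 8 upregulated at Years 0.5, 1, and 2 and 1, *Cd163*, downregulated at Year 1. The summed level of 5 neutrophil genes was 211 to 381 TPM in the control rats and 365 to 1144 TPM in the MWCNT-treated rats. Of these 5 genes, 1, 2, and 2 were upregulated, and the other 4, 3, and 3 did not pass the FDR. By contrast, 2 ciliated cell genes summed to 1080 to 1317 TPM in the control rats and to 206 to 497 TPM in the MWCNT-treated rats. Of them, 1, 2, and 2 fell by the FDR at the successive time points. Other cell types shared this direction. All 4 endothelial, 4 smooth muscle, and 3 red cell genes found fell by the FDR at each time point. In turn, 4, 3, and 4 of 4 alveolar type 1 genes fell. The same held for 2, 3, and 2 of 3 club cell genes and 4, 2, and 3 of 4 T and NK cell genes. The eosinophil genes *Prg2* and *Epx* were near 0, with group means of at most 0.414 and 0.236 TPM, and were not tested, and all 4 eosinophil genes together were at 16.1 to 24.8 TPM in the control rats and at 17.8 to 26.1 TPM in the MWCNT-treated rats. *Siglec5* made up most of that sum, with group means of 15.6 to 21.5 TPM, and rose at Years 1 and 2 (log2 fold change 0.44 at each, FDR 0.0148 and 0.00449), while *Ccr3* fell at Year 1 (-0.73, FDR 0.037) and Year 2 (-2.04, FDR 0.000279). The part of these cell types in the changes of *Alox5ap*, *Lta4h*, and *Alox15* was not tested.

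The cyclooxygenases differed in level and in change. At Year 0.5 *Ptgs1*, the constitutive form, was 36.1, 40.4, and 41.7 TPM in the control rats and 47.9, 51.9, and 46.0 TPM in the MWCNT-treated rats. At Year 1 it was 43.7, 49.97, and 45.4 TPM against 53.1, 51.5, and 49.0 TPM, where the lowest MWCNT-treated rat fell below the highest control rat. At Year 2 it was 39.8, 41.2, and 44.7 TPM against 55.8, 62.1, and 58.4 TPM. For *Ptgs1* the log2 fold change was 0.45 (SE 0.08, FDR 0.00293), 0.38 (SE 0.08, FDR 0.00494), and 0.70 (SE 0.07, FDR 3.46e-05). The Year 1 call was lost with limma on log2(TPM + 1), where the log2 fold change of *Ptgs1* was 0.14 (FDR 0.158) and the median of all genes was -0.21, and on log2(TPM + 0.1), where it was 0.15 (FDR 0.158).

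*Ptgs2*, the inducible form, passed the test at no time point. Its counts were 30 to 94 per rat. At Year 0.5 it was 1.18, 2.11, and 2.91 TPM in the control rats and 2.18, 1.23, and 1.18 TPM in the MWCNT-treated rats. At Year 1 it was 1.68, 1.07, and 2.22 TPM against 1.69, 1.10, and 1.30 TPM, and at Year 2 it was 1.40, 1.55, and 3.08 TPM against 0.868, 1.93, and 1.32 TPM. The groups overlapped each time, and the third control rat held the highest value of its time point throughout. Log2 fold changes of *Ptgs2* were -0.29 (95% interval -1.11 to 0.53, FDR 0.556), -0.06 (95% interval -0.72 to 0.60, FDR 0.875), and -0.32 (95% interval -1.16 to 0.51, FDR 0.495). *Ptgs1* exceeded *Ptgs2* in TPM 14.4- to 46.5-fold in the control rats and 22.03- to 64.3-fold in the MWCNT-treated rats.

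*Ptges*, a terminal synthase of prostaglandin E2 at chr3:9727408-9738752 of Rnor_6.0 on the minus strand, showed the largest rise of the members at each time point. At Year 0.5 it was 0.767, 1.26, and 0.755 TPM in the control rats and 3.20, 5.15, and 1.96 TPM in the MWCNT-treated rats. At Year 1 it was 1.04, 0.963, and 0.991 TPM in the control rats and 3.48, 3.17, and 2.12 TPM in the MWCNT-treated rats. At Year 2 it was 1.41, 0.742, and 1.98 TPM in the control rats and 5.35, 6.46, and 5.64 TPM in the MWCNT-treated rats. The groups were apart at each time point, and the 3 rats at Year 2 exceeded all earlier MWCNT-treated rats. The log2 fold change of *Ptges* was 2.06 (SE 0.45, FDR 0.00668), 1.78 (SE 0.34, FDR 0.00312), and 2.29 (SE 0.35, FDR 0.000632), or 4.16-, 3.44-, and 4.89-fold. Of the 14108 genes tested at every time point, 4.22% were upregulated DEGs at all 3. *Ptges* counts were low, at 7 to 17 in the control rats and 20 to 73 in the MWCNT-treated rats, so that the fold rests on few reads in the control group. With limma on log2(TPM + 1) the Year 1 value of *Ptges* was 0.96, short of the fold limit of a DEG.

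The rise of *Ptges* was larger than that of *Ptgs1* in the same rats. The ratio of *Ptges* to *Ptgs1* in TPM was 0.018 to 0.0444 in the control rats and 0.0427 to 0.104 in the MWCNT-treated rats, with no overlap within a time point. At Year 2 the ratio was 0.0958 to 0.104 in the MWCNT-treated rats. The ratio of *Ptges* to *Hpgds* was 0.214 to 1.22 in the control rats and 1.44 to 8.42 in the MWCNT-treated rats and did not overlap. The highest of these ratios came from a rat with 4 counts of *Hpgds*.

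*Hpgds* fell with MWCNT at Year 0.5 and passed the test at no later time point. At Year 0.5 it was 3.59, 2.95, and 3.46 TPM in the control rats and 1.28, 1.40, and 1.36 TPM in the MWCNT-treated rats. At Year 1 it was 2.22, 2.06, and 2.21 TPM in the control rats and 0.413, 1.87, and 1.24 TPM in the MWCNT-treated rats. At Year 2 it was 1.16, 2.15, and 2.62 TPM in the control rats and 2.70, 2.18, and 3.07 TPM in the MWCNT-treated rats. The MWCNT-treated rats thus lay below the control rats at Year 0.5 and, on the TPM scale, at Year 1, and overlapped with them at Year 2, where 2 of the 3 exceeded all control rats. The log2 fold change of *Hpgds* was -1.15 (SE 0.28, FDR 0.0107) at Year 0.5, -0.61 (SE 0.48, 95% interval -1.69 to 0.48, FDR 0.336) at Year 1, and 0.64 (SE 0.37, 95% interval -0.18 to 1.47, FDR 0.175) at Year 2. Its counts were 4 to 35 per rat. The Year 0.5 call held in the fits without 1 rat, with an FDR of at most 0.0469. With limma on log2(TPM + 1) the Year 0.5 value of *Hpgds* was -0.88 (FDR 0.0014), short of the fold limit of a DEG. Without MWCNT Year 1 replicate 1 the Year 1 log2 fold change was -0.20, and without MWCNT Year 1 replicate 2 it was -1.19 (FDR 0.106).

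Mast cell genes were examined beside *Hpgds*. The 6 mast cell genes together summed to 92.5 to 152 TPM in the control rats and to 66.4 to 69.8 TPM (Year 0.5), 78.4 to 102 TPM (Year 1), and 217 to 251 TPM (Year 2) in the MWCNT-treated rats. *Kit*, which other lung cells also express, made up most of the sum in the control rats and fell at each time point, with log2 fold changes of -1.03, -0.79, and -1.31. The other 5 genes, set apart from *Kit* after their values were seen, summed to 2.19 to 8.05 TPM in the control rats and to 4.34 to 23.4, 19.3 to 65.6, and 176 to 214 TPM in the MWCNT-treated rats. *Cpa3*, a mast cell protease, had log2 fold changes of 2.33, 3.91, and 5.30. At Year 1 these genes already exceeded the control level while *Hpgds* was 0.413 to 1.87 TPM. Their part in the change of *Hpgds* was not tested.

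**Figure D2:**
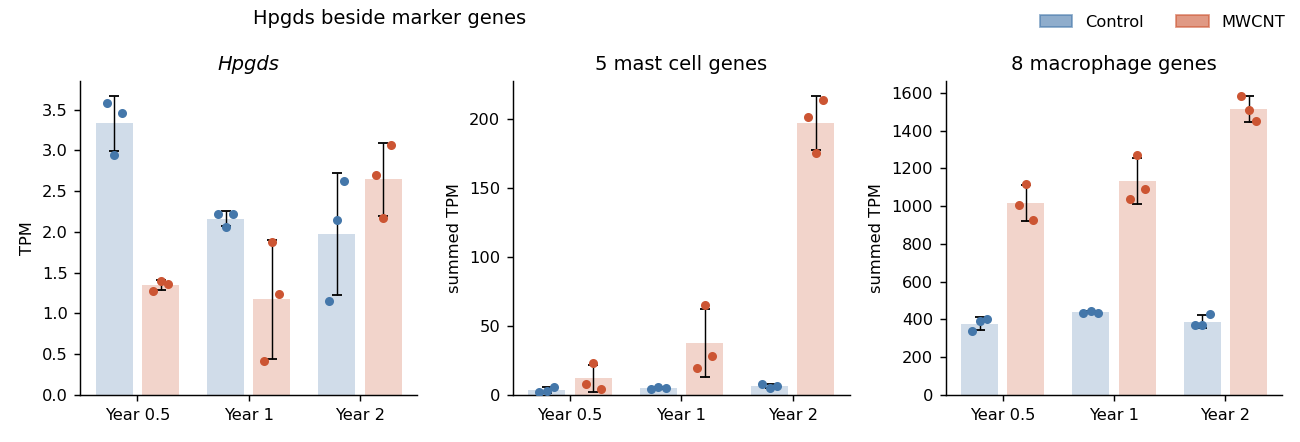
TPM of *Hpgds* (left), summed TPM of the 5 mast cell genes other than *Kit* (middle), and summed TPM of 8 macrophage genes (right) in every rat by time point. Points are rats, bars are group means, and error bars are SD (n = 3). *Hpgds* in MWCNT-treated rats is 1.28 to 1.40 TPM at Year 0.5 and 2.18 to 3.07 TPM at Year 2, and the mast cell sum is 4.34 to 23.4 and 176 to 214 TPM.

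**Figure D3:**
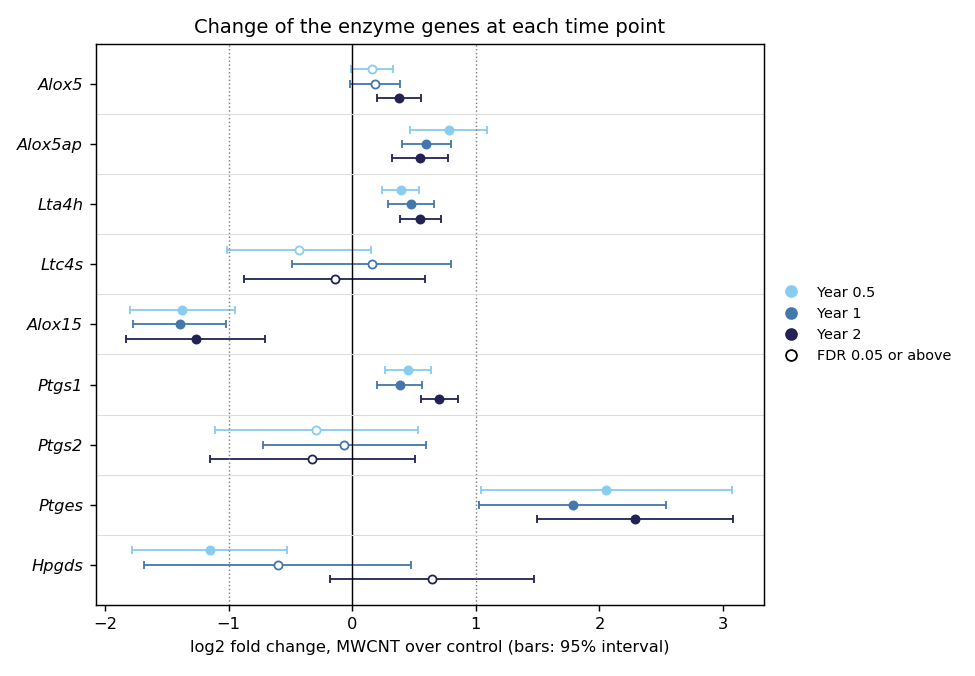
Log2 fold change of MWCNT-treated over control rats (horizontal axis, from counts scaled by TMM) for the 9 members at Years 0.5, 1, and 2, with 95% intervals and n = 3 rats per group. Filled points have an FDR below 0.05 and dotted lines mark an absolute log2 fold change of 1. *Ptges* at 1.78 to 2.29 and *Alox15* at -1.40 to -1.27 lie past the lines at each time point, and *Hpgds* moves from -1.15 to 0.64.

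Counted by whether the rats of a time point overlapped in CPM, MWCNT-treated rats lay above all control rats for 5 members and below for 3 at Year 0.5, where 51.7% of all genes did not overlap (26.3% above and 25.4% below). At Year 1 this held for 4 members above and 1 below, beside 54.9% of all genes (28.5% and 26.4%). At Year 2 it held for 5 above and 1 below, beside 59.8% (30.4% and 29.3%).

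To ask whether the response to MWCNT changed over time, the difference between the time points was tested in 1 model of all 18 rats. No member passed an FDR of 0.05 for Year 2 against Year 0.5 in edgeR or in DESeq2, as 1.31% of all genes did in edgeR. At an unadjusted p below 0.05, where 13.8% of all genes lay, edgeR had 3 members, *Alox5*, *Ptgs1*, and *Hpgds*, and DESeq2 had 2, *Ptgs1* and *Hpgds*. *Hpgds* had the largest value, with an interaction of 1.80 on the log2 scale (SE 0.54, FDR 0.118), and an FDR of 0.0529 in DESeq2. That of *Ptgs1* was 0.26 (SE 0.10, FDR 0.265) and that of *Alox5* was 0.23 (SE 0.10, FDR 0.346). For *Ptges* the interaction was 0.25 (95% interval -0.95 to 1.45) and for *Alox15* it was 0.12 (95% interval -0.60 to 0.83). For Year 1 against Year 0.5, no member passed the FDR in either tool, and 0 genes passed the FDR in edgeR and 6 in DESeq2. There, 0 members had an unadjusted p below 0.05 in either tool, beside 8.49% of all genes in edgeR and 8.01% in DESeq2.

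Across time within a treatment, no member was a DEG between Year 0.5 and Year 2 in edgeR or in DESeq2. At an unadjusted p below 0.05, edgeR had 2 members in the control rats, *Alox5ap* and *Lta4h*, beside 24% of all genes. In the MWCNT-treated rats it had 4, *Alox5*, *Ptgs1*, *Ptges*, and *Hpgds*, beside 27.7% of all genes. In the control rats, 0.633% of all genes were DEGs and 6.65% passed the FDR alone, among them *Lta4h*, whose log2 difference of Year 2 over Year 0.5 was -0.30 (SE 0.07, FDR 0.0232). This call of *Lta4h* was lost when only the control rats compared were fitted (FDR 0.0769), and without Control Year 0.5 replicate 1 (FDR 0.0729) or 3 (FDR 0.0711) or Control Year 2 replicate 1 (FDR 0.064) or 2 (FDR 0.114). In the MWCNT-treated rats, 2.34% were DEGs and 13.5% passed the FDR alone, among them *Ptgs1*, whose log2 difference was 0.36 (SE 0.07, FDR 0.00378). In the same rats the log2 difference was 1.05 for *Hpgds* (FDR 0.0844) and 0.82 for *Ptges* (FDR 0.122), and neither passed. Without MWCNT Year 0.5 replicate 2, the rat with the highest *Ptges* value of its group, the difference of *Ptges* was 1.26 with an FDR of 0.0314.

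The genes nearest to the members that were DEGs were sought among the 14843 genes of the model of all rats, by the root mean square difference of centred mean log2 CPM over the 6 groups. Nearest to *Ptges* were *Kcnk13* at 0.06 and *Fam20c* at 0.12. For *Alox15* they were *Ctnnd2* at 0.10 and *Ccdc24* at 0.10, and for *Hpgds* *Astn2* at 0.13 and *Cracd* at 0.13. The centred mean log2 CPM of *Ptges* was -1.10, -1.001, and -0.66 in the control groups from Year 0.5 to Year 2 and 0.65, 0.56, and 1.55 in the MWCNT-treated groups. These are likenesses over 6 group means that share the same libraries.

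The rest of the pathway was taken from a list of 41 other genes, of which 39 were found and 33, 33, and 32 were tested. At Year 0.5, 3 were upregulated and 3 downregulated DEGs, at Year 1 these were 3 and 1, and at Year 2 they were 5 and 4. Of all genes tested, 6.07%, 6.13%, and 8.17% were upregulated and 3.03%, 4.09%, and 8.22% downregulated DEGs. By the FDR alone, 9 of the list rose and 12 fell at Year 0.5, 7 rose and 10 fell at Year 1, and 10 rose and 13 fell at Year 2. Of all genes, 20.2%, 21.6%, and 25.2% rose and 18.6%, 19.6%, and 24% fell. The median log2 fold change of the list was -0.27, 0.01, and -0.33, and that of all genes was -0.02, 0.00, and -0.01. The median absolute value was 0.55, 0.56, and 0.65 for the list and 0.26, 0.30, and 0.35 for all genes. *Alox12e*, *Alox12b*, *Alox15b*, *Ltb4r2*, *Oxgr1*, and *Fpr2* had too few counts to be tested, as had *Ltb4r* at Year 2, and *Ggt5* and *Ptgdr* were not analysed here.

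At the head of the pathway, *Pla2g4a*, the cytosolic phospholipase A2 that releases arachidonic acid, rose at each time point. It was 9.25 ± 2.11, 9.02 ± 1.13, and 7.04 ± 2.34 TPM in the control rats and 14.3 ± 0.852, 13.9 ± 1.64, and 13.3 ± 0.543 TPM in the MWCNT-treated rats (SD, n = 3). Its log2 fold changes were 0.78 (FDR 0.00346), 0.87 (FDR 0.00137), and 1.13 (FDR 0.0017), and it was a DEG at Year 2.

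Of the 6 other genes of prostanoid synthesis, *Tbxas1* was the DEG. *Tbxas1*, the thromboxane synthase, was 16.9 ± 1.74, 18.6 ± 0.599, and 16.6 ± 2.93 TPM in the control rats and 50.3 ± 4.74, 53.6 ± 5.55, and 67.0 ± 2.30 TPM in the MWCNT-treated rats (SD, n = 3). Its log2 fold changes were 1.72 (FDR 1.35e-05), 1.77 (FDR 1.07e-05), and 2.23 (FDR 2.46e-06), or 3.30-, 3.41-, and 4.68-fold. Per length it stood far above *Ptges*, whose highest group mean was 5.82 TPM. Of the other 5 genes, *Ptges2*, *Ptges3*, *Ptgds*, *Cbr1*, and *Akr1b1*, none was a DEG at any time point, and by the FDR alone 1, 0, and 2 of them fell at the successive time points. *Ptges2* and *Ptges3*, also prostaglandin E synthases, had group means of 18.8 to 23.3 and 249 to 286 TPM, above *Ptges*. Neither passed the FDR at any time point. *Ptgds*, also a prostaglandin D synthase, had group means of 6.56 to 14.7 TPM, above *Hpgds*, and fell at Year 2 (log2 fold change -0.87, FDR 0.0174).

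Of the 5 other lipoxygenases found, 2 were tested. *Alox12*, the platelet-type 12-lipoxygenase, had log2 fold changes of 0.96 (FDR 0.00156), 1.00 (FDR 0.000468), and 1.58 (FDR 3.25e-05), with 5.86 ± 0.499 TPM in the control rats and 15.1 ± 2.24 TPM in the MWCNT-treated rats at Year 2 (SD, n = 3). It rose while *Alox15* fell. *Aloxe3*, an epidermis-type lipoxygenase, had log2 fold changes of -1.05 (FDR 0.00388), -0.88 (FDR 0.0104), and -1.50 (FDR 0.00332).

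Because *Ptgs1*, *Tbxas1*, and *Alox12* are also known from platelets, platelet genes were set beside them. The 4 platelet genes summed to 47.7 to 64.7 TPM in the control rats and to 105 to 144 TPM in the MWCNT-treated rats. *Pf4* rose, with log2 fold changes of 1.47, 1.84, and 1.92, while *Itga2b* fell, with -0.71, -0.46, and -0.65, and *Gp1bb* fell, with -2.36, -1.03, and -2.38. *Ppbp* was not tested. *Itga2b* and *Gp1bb* thus moved against *Ptgs1*, *Tbxas1*, and *Alox12* and *Pf4* moved with them, and the part of platelets in these changes was not tested. The sum of the 8 macrophage genes also rose, from 338 to 444 TPM in the control rats to 928 to 1584 TPM in the MWCNT-treated rats. Of these 8, 5, 4, and 6 were upregulated at the successive time points and *Cd163* was downregulated at Year 1. The part of macrophages was not tested either. A list of 3 red cell genes summed to 13897 to 34770 TPM in the control rats and to 3504 to 8811 TPM in the MWCNT-treated rats.

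The prostaglandin breakdown genes *Hpgd* and *Ptgr1* fell at each time point. *Hpgd*, the 15-hydroxyprostaglandin dehydrogenase that inactivates prostaglandin E2, was 77.1 ± 17.5, 60.1 ± 5.02, and 58.2 ± 8.74 TPM in the control rats and 35.8 ± 6.55, 34.7 ± 3.80, and 15.6 ± 3.58 TPM in the MWCNT-treated rats (SD, n = 3). Its log2 fold changes were -0.97 (FDR 0.00299), -0.56 (FDR 0.0015), and -1.68 (FDR 3.26e-05). *Ptgr1*, the next enzyme of the breakdown, had -1.02 (FDR 0.000293), -0.70 (FDR 0.00303), and -0.91 (FDR 0.00021). With the prostaglandin transporter *Slco2a1*, 3 of the 6 genes of breakdown and transport fell by the FDR at each time point, and the exporters *Abcc1* and *Abcc4* rose at Year 0.5 and Year 2. The summed level of endothelial genes, which moved the same way, was 1797 to 2241 TPM in the control rats and 655 to 1334 TPM in the MWCNT-treated rats, and its part was not tested.

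Receptor genes moved in both directions. *Ptger2*, a prostaglandin E2 receptor, was 4.57 ± 0.402, 6.82 ± 0.627, and 8.17 ± 0.770 TPM in the control rats and 11.5 ± 0.753, 14.0 ± 1.31, and 17.0 ± 1.52 TPM in the MWCNT-treated rats (SD, n = 3). Its log2 fold changes were 1.48 (FDR 0.000132), 1.29 (FDR 0.000237), and 1.27 (FDR 4.87e-05). *Cysltr1*, a cysteinyl leukotriene receptor, had 1.32 (FDR 0.00552), 1.18 (FDR 0.00207), and 1.97 (FDR 0.000463). *Ptgfr*, the prostaglandin F receptor, fell, with log2 fold changes of -1.45 (FDR 0.0037), -1.63 (FDR 0.00139), and -1.57 (FDR 0.00162). *Tbxa2r*, the thromboxane receptor, fell, with -0.86 (FDR 0.0127), -0.68 (FDR 0.0216), and -1.05 (FDR 0.00625), against the direction of the thromboxane synthase *Tbxas1*. Of the 8 prostanoid receptors tested, 2 rose and 5 fell at Year 0.5, 1 rose and 3 fell at Year 1, and 2 rose and 4 fell at Year 2 by the FDR. None of the other pathway genes passed an FDR of 0.05 for the interaction of Year 2 against Year 0.5 in edgeR or DESeq2. In each tool 4 had an unadjusted p below 0.05, beside 13.8% of all genes in edgeR and 13.7% in DESeq2.

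**Figure D4:**
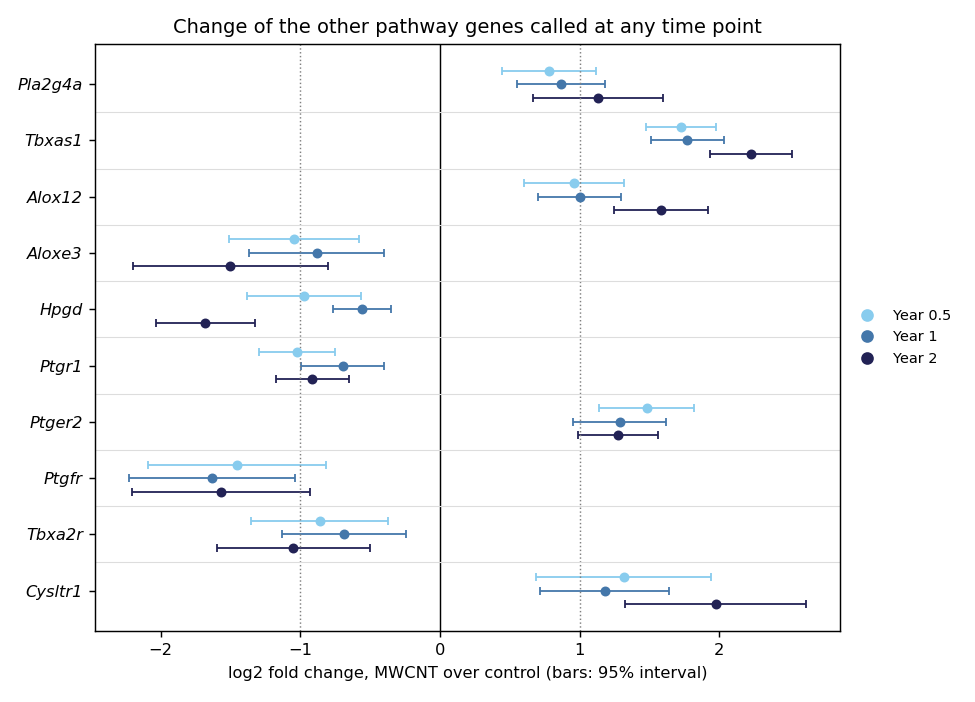
Log2 fold change of MWCNT-treated over control rats (horizontal axis, from counts scaled by TMM) for the 10 other pathway genes that were DEGs at 1 or more time points, with 95% intervals and n = 3 rats per group. All points have an FDR below 0.05, and dotted lines mark an absolute log2 fold change of 1. *Tbxas1* at 1.72 to 2.23, *Ptger2* at 1.27 to 1.48, and *Cysltr1* at 1.18 to 1.97 lie to the right, and *Ptgfr* at -1.63 to -1.45 lies to the left, at every time point.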

How the data were processed

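The data were RNA-seq of the lungs of 18 rats, grouped by the sample labels. The authors mapped the reads to the rat genome in CLC Genomics Workbench, and the submitters' processing notes name Rnor_6.0 (rn6). They deposited the count of reads per gene, without normalization, and TPM values made from the same reads. The annotation release, the use of strand, and how reads with several matches were handled are not given in the sources used here and are fixed in these counts, so that overlapping or antisense genes cannot be told apart. The authors' RPKM and CPM values (36 columns) and their columns of fold changes and p-values were not used.

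Members were the genes whose name equalled a listed symbol. Members and lists were chosen with earlier results of these data known. In R 4.3.3, edgeR 4.0.16 filtered genes by filterByExpr (minimum count 10, minimum total 15), scaled counts by TMM, and applied the quasi-likelihood test to the 6 rats of each time point with Benjamini-Hochberg adjustment over all genes tested. Time and interaction were tested in 1 model of all 18 rats. Scripts were tested on simulated data. Every member was named, other pathway genes where they were DEGs at 1 or more time points or fell outside the tests, the 2 nearest genes of each member called, and markers beside a member's result. Single marker genes, the other FDR-only genes named, and the mast cell list without *Kit* were picked after their values were seen.

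The alternatives used every gene with counts, only genes reaching 10 counts in each rat, scaling by library size or by the upper quartile, DESeq2 1.42.0, limma 3.58.1 on log2(TPM + 1) and log2(TPM + 0.1), 1 model of all rats, the FDR alone, only the rats compared, the replicate number as a block, and each rat left out. Depth is the total count per rat. Intervals of 95% are confidence intervals of the log2 fold change or interaction from the quasi-likelihood fit. They do not give the spread of single rats.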

Additional observations from a re-analysis of the deposited data

How the results depend on the processing

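Of 401 refits of the members' 27 log2 fold changes, 385 kept the direction and the side of the FDR threshold, as did 266 of 270 for the other pathway genes. The sign turned only in values that had not passed the test. *Ptgs2* was 0.033 at Year 0.5, 0.20 at Year 1, and 0.10 at Year 2 without the third control rat, and 0.032 at Year 1 without MWCNT Year 1 replicate 2, with ranges over the rats left out of -0.62 to 0.033, -0.31 to 0.20, and -0.64 to 0.10. *Ltc4s* at Year 2 was 0.019 without MWCNT Year 2 replicate 2 (range -0.35 to 0.019). With limma on log2(TPM + 1) and log2(TPM + 0.1), *Alox5* at Year 1 was -0.054 and -0.055, and *Ltc4s* at Year 1 was -0.055 and -0.059. The Year 1 call of *Tbxa2r* was lost without Control Year 1 replicate 1 (FDR 0.0642), MWCNT Year 1 replicate 2 (FDR 0.0594), or MWCNT Year 1 replicate 3 (FDR 0.0625), and its Year 0.5 call without Control Year 0.5 replicate 1 (FDR 0.0573).

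By the FDR alone, 6, 5, and 6 members passed at Years 0.5, 1, and 2. With at least 10 counts in every rat, 2 members were called at Year 0.5, 1 at Year 1, and 1 at Year 2, because *Ptges* was not tested. With limma on log2(TPM + 1), 2 were called at Year 0.5, where *Hpgds* was -0.88 (FDR 0.0014), and 1 at Year 1, where *Ptges* was 0.96. Between Year 0.5 and Year 2 in the MWCNT-treated rats, 1 member, *Hpgds*, was called when only the rats compared were fitted (log2 difference 1.04, FDR 0.0476), and 0 to 1 when 1 rat was left out.

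The sample labels do not describe the replicate numbers as pairs of rats. Deviations from the group means correlated at 0.00685 on average over the 9 pairs with the same number. The value of -0.00319 over 18 pairs with different numbers is no separate comparison, because the deviations within a group cancel out. With the number as a block, 3, 2, and 2 members were called, and it changed no call of a member. Precision is limited by 3 rats per group and by the counts of 4 to 94 of *Ptges*, *Hpgds*, *Ptgs2*, and *Ltc4s*.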

Other observations

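Among the control rats, the third rat of Year 0.5 and of Year 2 had both the highest *Ptgs2* value (2.91 and 3.08 TPM) and the lowest *Alox15* value (16.9 and 16.8 TPM) of its group, while at Year 1 these fell in different rats. Both rats also had the highest sum of the 5 heart muscle genes of their group, at 453 and 452 TPM, where the others had 133 and 223 TPM at Year 0.5 and 67.8 and 157 TPM at Year 2. At Year 1 the control rat with the lowest *Alox15* value, replicate 2, had the highest heart muscle sum, at 357 TPM. Its *Ptgs2* value, at 1.07 TPM, was the lowest of its group. Without these rats the log2 fold change of *Alox15* was -1.56, -1.54, and -1.50. This was noticed after the values were seen and the part of heart muscle in it was not tested.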
